A study of Mus musculus with 5 samples.

Results

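Chromosome 5 carried 1653 of the 22756 CTCF peaks that were listed for mouse NIH3T3 fibroblasts, and among the autosomes only chromosomes 11, 2 and 1 carried more. The members are every interval of the list on chromosome 5, whatever its width or surroundings. NIH3T3 is a mouse embryonic fibroblast line. The cells used carried a histone reporter, H2B-mCherry, and a gene for CDX2 under the TRE3G promoter, which rtTA3G switches on when doxycycline is given, and the labels do not say whether they were 1 clone. All 5 libraries came from this line: 2 CTCF immunoprecipitations after 6 h with doxycycline at 500 ng/µL as labelled, 2 CTCF immunoprecipitations without it, and 1 input without it. Whether the 2 libraries of a group came from separate cultures is not stated in the labels. Both conditions were merged in 1 list of positions, so no peak can be tied to a treatment or a replicate, and the reads behind a peak are unknown. There is therefore no comparison of doxycycline with its absence, which the design poses, and no replicate spread below, and the fibroblast label cannot be checked against marker expression.

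CTCF is a zinc finger protein that binds a long, oriented DNA motif and stops the loop extrusion by cohesin, so that its sites often mark loop anchors and the borders of chromatin domains. It is bound at many of the same positions in most cell types, at promoters, within genes and between them. Mouse chromosome 5 is acrocentric: positions are counted from the centromeric end, and "distal" below means towards the far telomere. The chromosome holds the receptor tyrosine kinase genes Pdgfra, Kit and Kdr, the counterpart of the human Williams syndrome region, and the T-box genes Tbx3 and Tbx5. It also holds the ParaHox genes Gsx1, Pdx1 and Cdx2, the last being the endogenous copy of the induced gene.

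The sequences that connect the peaks to the factor are the promoter windows they cover. RefSeq promoter windows on GRCm38.p6, from 250 bases before to 50 bases after a gene's start, were at hand for 1057 of the 1245 protein-coding genes of chromosome 5 and for many non-coding genes, 2046 windows in all. A peak overlapped 87 of them. A CTCF consensus of CCA, 2 free bases, AG, 2 free bases and GGC, searched on both strands, was found in 13 of these 87 windows (14.9%, exact 95% interval 8.20 to 24.2%). In the 1959 windows without a peak it was found in 44 (2.25%, 1.64 to 3.00%), and in all 2046 windows in 57 (2.79%). The following 30-base stretches, each read on the strand of the match and with the consensus in capitals, are examples of the matches, chosen to spread along the chromosome and to include genes described below.

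Fam133b, chr5:3543757-3543786, plus strand: tcctccgcaCCACCAGGGGGCgccgtggcg
Mterf1a, chr5:3894025-3894054, plus strand: cgcgggagcCCAGCAGGGGGCggctgagac
Rint1, chr5:23787618-23787647, plus strand: gacatccaaCCAGCAGGGGGCgccacagaa
Rplp0, chr5:115559281-115559310, plus strand: ggctccgacCCAGCAGAGGGCagcaggtct
Tbx3os2, chr5:119691315-119691344, minus strand: ccggtgcaaCCAGCAGATGGCagcaaagga
Vps37d, chr5:135078334-135078363, plus strand: cgcgttctgCCACCAGGGGGCgccttgacc
Radil, chr5:142551259-142551288, minus strand: cgttggggaCCAGAAGGGGGCgctagcgca
Mtus2, chr5:147957219-147957248, plus strand: cgtgtcgggCCAGCAGAGGGCgctcggctc

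Fam133b, Mterf1a, Rint1, Vps37d and Radil also hold the shorter CTCF word AGGGGGC within the capitals, and Rplp0, Tbx3os2 and Mtus2 do not. All 14 matches in the 13 windows lay inside the peak, at 4 to 112 bases from its midpoint with a median of 31. Of the 14, 9 read along the strand of the gene and the rest against it. On the other autosomes with promoter windows, the consensus was in 187 of 1079 windows with a peak (17.3%, 15.1 to 19.7%) and in 531 of 28240 without (1.88%). The share on chromosome 5 thus lay within the counting error of that elsewhere. Base composition moved with the peaks: the median G and C content was 59.7% in the 87 windows and 54.3% in the 1959, and its part in the difference was not tested. No match was found in 74 of the 87 windows, which says only that these letters were not there.

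The promoters of 3 genes show how the match sits before a start site, each printed from 250 bases before the start up to the start, on the strand of the gene. Rplp0 encodes a protein of the ribosomal stalk, Vps37d a subunit of the ESCRT-I sorting complex in the Williams syndrome region, and Mtus2 a microtubule-associated protein whose gene is among the richest in peaks on the chromosome.

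Rplp0, chr5:115559217-115559466, plus strand: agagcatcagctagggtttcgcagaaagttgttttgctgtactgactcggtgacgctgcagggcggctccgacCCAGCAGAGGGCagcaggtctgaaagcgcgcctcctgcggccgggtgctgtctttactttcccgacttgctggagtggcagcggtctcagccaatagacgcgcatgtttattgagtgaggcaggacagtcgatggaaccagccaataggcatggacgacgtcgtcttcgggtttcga
Vps37d, chr5:135078267-135078516, minus strand: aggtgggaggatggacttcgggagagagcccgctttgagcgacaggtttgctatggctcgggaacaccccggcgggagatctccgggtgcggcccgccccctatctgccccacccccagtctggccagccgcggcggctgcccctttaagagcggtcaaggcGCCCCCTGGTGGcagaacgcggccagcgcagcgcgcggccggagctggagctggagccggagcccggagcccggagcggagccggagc
Mtus2, chr5:147957070-147957319, plus strand: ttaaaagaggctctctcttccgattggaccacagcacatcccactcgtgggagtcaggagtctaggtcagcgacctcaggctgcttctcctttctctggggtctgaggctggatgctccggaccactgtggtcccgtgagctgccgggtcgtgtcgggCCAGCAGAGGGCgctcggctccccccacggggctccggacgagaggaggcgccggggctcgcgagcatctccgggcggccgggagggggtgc

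The match at Rplp0 begins at base 74 of the printed stretch, at Vps37d at base 163 and at Mtus2 at base 159. The peaks that cover them span positions 115559185 to 115559462, 135078239 to 135078543 and 147957132 to 147957348. In Vps37d the consensus runs on the opposite strand to the gene, so the capitals show its reverse complement. Along the chromosome the 87 windows were covered by 80 peaks, of which 7 covered the windows of 2 genes on opposite strands. Examples are the promoter shared by Nop14, a ribosome biogenesis gene, and Grk4, a receptor kinase gene, and the one shared by Ep400, which encodes a chromatin remodeller, and the non-coding Gm15559.

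By length, chromosome 5 was among the denser autosomes. It held 11.1 peaks per Mb over a span of 148.7 Mb, from the first annotated position at 3000138 to the end of the last peak at 151722736. Chromosomes 11, 19 and 15 were denser, at 21.3, 16.8 and 13.4, and chromosome 17 followed at 10.7. The lowest value was 5.20 on chromosome 14, and the median of the 18 other autosomes was 8.22. Chromosomes 4 and 6, the closest in span, had 8.28 and 7.92 peaks per Mb. The chromosome carried 7.33% of autosomal peaks (exact 95% interval 6.99 to 7.68%) on 6.19% of the autosomal span. Such intervals cover counting error only and treat neighbouring peaks as independent, which they are not, and no difference between chromosomes was tested. The list gives neither read depth nor the copy number of chromosomes or their parts in these cells. The part of either in the densities here and below was not tested.

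Counted per gene, chromosome 5 was again in the upper part of the range. It has 8.37 protein-coding genes per Mb, rank 8 of the 19 autosomes, and the median of the others is 7.76. It held 1.33 peaks per protein-coding gene, and the median of the others was 1.04. Chromosomes 15 (1.75), 11 (1.58), 1 (1.44) and 19 (1.39) were higher, and chromosome 12 came next below at 1.14. With every annotated gene counted, pseudogenes and non-coding RNA genes included, there were 0.609 peaks per gene, rank 4 of 19. Relative to the pooled other autosomes, chromosome 5 had 1.20 times the peaks per Mb (1.14 to 1.26) and 1.23 times the peaks per protein-coding gene (1.17 to 1.29). Without chromosome 11, the densest of the others, the ratio per Mb was 1.29.

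**Figure D1:**
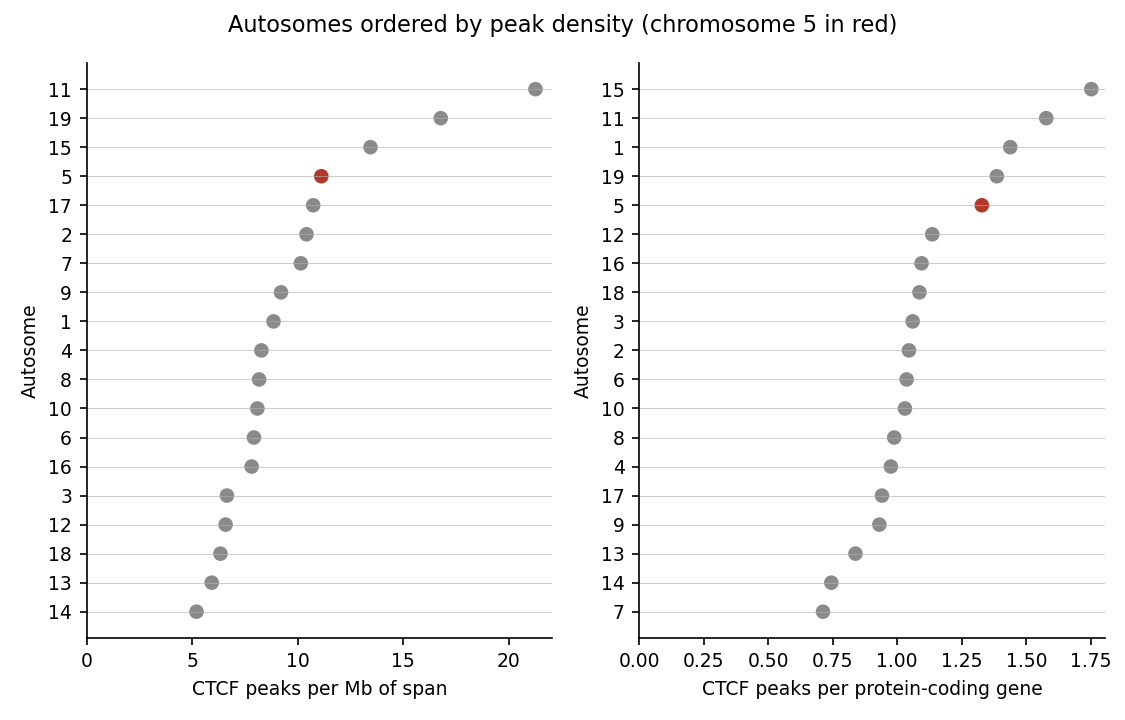
CTCF peaks per Mb of span (left) and per protein-coding gene (right) for each of the 19 autosomes, 1 point per chromosome, ordered by value. Chromosome 5, in red, has rank 4 by length with 11.1 and rank 5 by genes with 1.33.

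Peaks were crowded into the distal part of the chromosome. The last 33.3% of the span, from position 102148537, held 1028 peaks, or 62.2% of the chromosome's total, and the part before it held 625. This is 20.7 peaks per Mb against 6.30, a ratio of 3.29 (exact 95% interval 2.98 to 3.64). Chromosomes 15 and 4 had a steeper ratio, 4.68 and 3.58, chromosome 11 had 2.54, and the median of the 18 others was 1.35. Some autosomes ran the other way, such as chromosome 14 with 0.225 and chromosome 16 with 0.481. Outside its distal part chromosome 5 had rank 14 of 19 in peaks per Mb.

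Protein-coding genes were crowded there too, though less than peaks. The distal part has 644 of the 1245 protein-coding genes, 51.7%, and 1.60 peaks per gene against 1.04 in the rest, a ratio of 1.53 (1.39 to 1.70). The same ratio was 1.27 on chromosome 4 and 0.953 on chromosome 15, the pair with steeper gradients by length, and chromosomes 17, 18, 19 and 8 stood above chromosome 5. A gene is called covered below where at least 1 peak midpoint fell in its body or at most 10 kb from it. On the whole chromosome 720 of 1245 protein-coding genes were covered (57.8%), beside 53.4% over chromosomes 1 to 19. In the distal part 446 of 644 were (69.3%), and in the rest 274 of 601 (45.6%). A peak at most 1 kb from a gene's first or last base was present at 149 of the 1245, beside 12.6% over chromosomes 1 to 19, and 101 of these were distal genes (15.7%) and 48 were others (7.99%). The median gene was shorter in the distal part, 20.0 kb against 27.8 kb. Peaks lay a median of 21.2 kb apart there and 55.9 kb apart in the rest, and their median width was 271 bp against 251 bp.

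**Figure D2:**
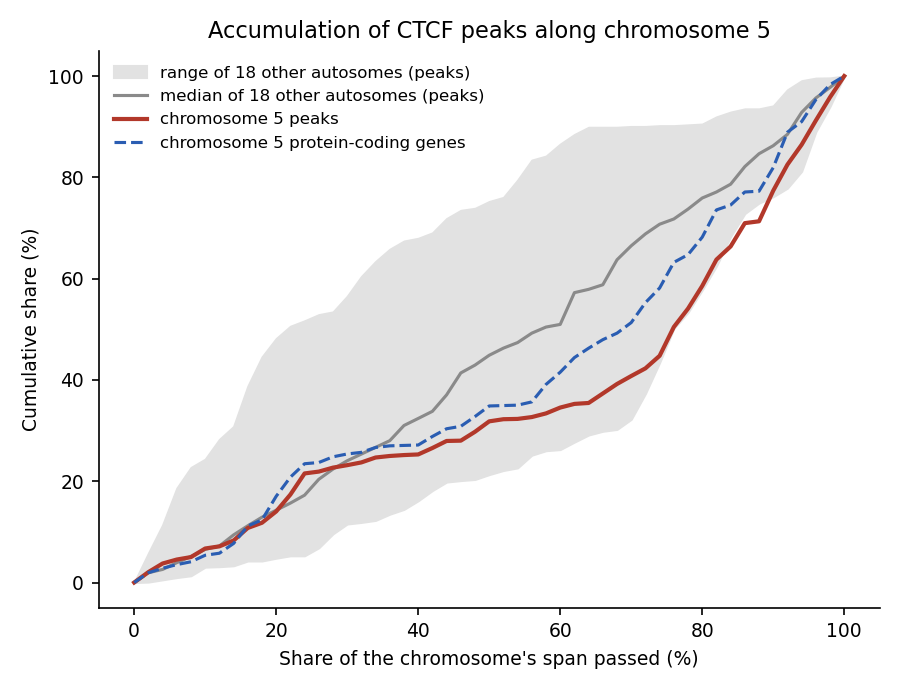
Cumulative share of peaks (red) and of protein-coding genes (dashed blue) on chromosome 5 against the share of its span passed, beside the median (grey line) and range (grey area) of peaks on the 18 other autosomes. After 70% of the span chromosome 5 had reached 40.8% of its peaks and 51.3% of its genes, and the median of the others stood at 66.5% of peaks.

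In windows of 5 Mb the counts ran from 3 to 161. Before 3 Mb no peak is listed and genes were left out, so the first window is only partly filled, and the last is cut short. The 30 full windows of chromosome 5 had a median of 35 peaks with quartiles of 20 and 82.8, and the 453 full windows of the other autosomes had a median of 36 with quartiles of 18 and 59. The medians were thus close, and chromosome 5 had more of its windows at the top: 5 of 30 windows (16.7%) exceeded 100 peaks, against 38 of 453 (8.39%). Windows under 20 peaks were about as common, 8 of 30 (26.7%) and 122 of 453 (26.9%). The 5 fullest windows of chromosome 5 held 673 peaks, 40.7% of the total, and 35.1% of the genes.

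**Figure D3:**
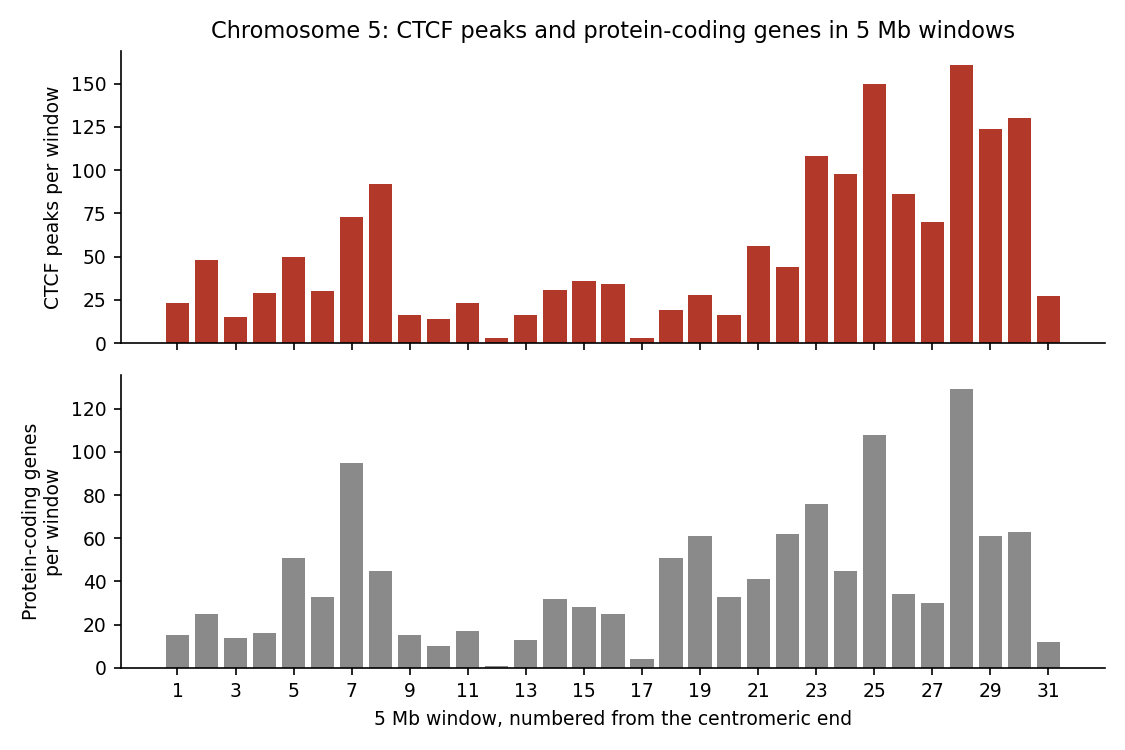
Number of CTCF peaks (top) and of protein-coding genes (bottom) in each of the 31 windows of 5 Mb along chromosome 5, numbered from the centromeric end. The first and last windows are only partly covered by the span. Windows 23 to 30 held 70 to 161 peaks each, and windows 12 and 17 held 3 each.

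The fullest window, 135 to 140 Mb, had 161 peaks over 129 protein-coding genes, led by Col26a1, a collagen gene with 9 peaks in its body. Next came 120 to 125 Mb with 150 peaks over 108 genes, led by Wdr66, which encodes a WD repeat protein of cilia, with 7, and by Rbm19, an RNA-binding protein gene next to the T-box genes, with 6. The window of 145 to 150 Mb had 130 over 63 genes, led by Mtus2 with 7, and that of 140 to 145 Mb had 124 over 61 genes, where Mad1l1, a spindle checkpoint gene, and Amz1, a metallopeptidase gene, led. At 110 to 115 Mb there were 108 over 76 genes, led by 2900026A02Rik with 10. Together the 40 Mb from 110 to 150 Mb held 927 peaks, 56.1% of the chromosome's total, at 23.2 per Mb and 1.70 per gene, with 43.9% of the genes.

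Within this dense stretch the ratio of peaks to genes was highest where genes are few, and the gene number is the denominator of that ratio. On the other autosomes, too, peaks rose less than genes. The median per window was 38.5 peaks with 21 to 40 genes and 87 with 101 or more. The window of 125 to 130 Mb had 86 peaks over 34 genes, 2.53 per gene, and only 4 of 315 windows with at least 20 genes on the other autosomes were higher. Among its leading genes were Tmem132c and Tmem132b, which encode membrane proteins of neurons, and the synaptic gene Rimbp2. At 130 to 135 Mb there were 70 over 30 genes, 2.33 per gene, led by Caln1, a neuronal calcium-binding protein gene, with 8. The window of 115 to 120 Mb had 98 over 45 genes, 2.18 per gene, led by Ksr2, which encodes a scaffold of the Ras to MAP kinase route. The fullest window of all, by contrast, had 1.25 per gene, close to the median of 1.13 in those 315 windows.

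**Figure D4:**
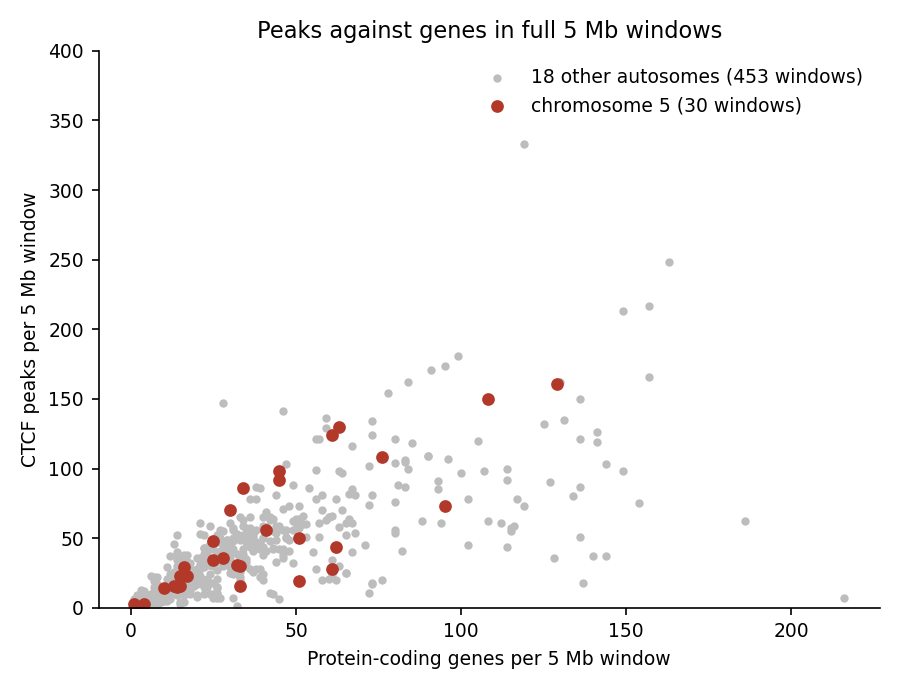
CTCF peaks against protein-coding genes in full 5 Mb windows, with 30 windows of chromosome 5 in red and 453 windows of the other autosomes in grey. Most red windows with many genes lie high, up to 161 peaks over 129 genes, and 5 windows with 33 to 62 genes lie low with 16 to 44 peaks.

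Over the 30 full windows the number of peaks and of protein-coding genes went together, with a Pearson r of 0.811 and a Spearman rho of 0.814. On the other autosomes Pearson's r ran from 0.448 on chromosome 2 to 0.970 on chromosome 15. These are descriptions, as neighbouring windows share domains and large genes. Among windows with 21 to 40 genes those of chromosome 5 had 16 to 86 peaks, median 35, and those elsewhere 1 to 147, median 38.5. With 61 to 100 genes the medians were 90.5 on chromosome 5 and 79.5 elsewhere, in 6 and 58 windows.

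The 2 fullest windows of 5 Mb outside the distal part lay side by side, between 30 and 40 Mb. Together they held 165 peaks, 16.5 per Mb, but they were unlike. The window of 30 to 35 Mb is rich in genes, with 73 peaks over 95 genes or 0.768 per gene. That of 35 to 40 Mb had 92 peaks over 45 genes, 2.04 per gene, and 17 of the 315 windows elsewhere were higher. Among its leading genes were Sorcs2, a sorting receptor gene of neurons, with 7 in the body, and Ppp2r2c, a phosphatase subunit gene. A run of 6 peaks with neighbours under 10 kb apart ran from 36942587 to 36959185, over the last part of Ppp2r2c and past its end at 36955078. Nearer the centromere, the window of 5 to 10 Mb had 48 peaks over 25 genes, 1.92 per gene. Of the 315 windows elsewhere 26 were higher.

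The sparse stretches were of 2 kinds. From 40 to 65 Mb both peaks and genes were few: 72 peaks and 56 protein-coding genes over 25 Mb, 2.88 peaks per Mb, yet 1.29 per gene, near the average of the chromosome. From 85 to 100 Mb genes were plentiful and peaks were not: 63 peaks over 145 genes, 0.434 per gene, with 34 genes (23.4%) covered. The 3 windows there had 0.373, 0.459 and 0.485 peaks per gene, and of the 315 windows with at least 20 genes elsewhere 21, 34 and 36 were lower. Leaving out gene models with Gm or Rik symbols, the value from 85 to 100 Mb was 0.492. The borders of both stretches were placed after the windows had been seen.

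Tandem families make up much of the peak-poor, gene-rich stretch. It holds 18 Pramel genes, a leucine-rich repeat family of the germ line, none of them covered, against 57.8% of all protein-coding genes of the chromosome. Of 10 Ugt2 genes, which encode enzymes that couple glucuronic acid to steroids and drugs, only Ugt2b5 was covered, by a peak 2.96 kb from its body. The casein cluster and its neighbours, a list of 16 genes of milk, enamel and saliva proteins with the sulfotransferase genes Sult1b1, Sult1d1 and Sult1e1 and the immunoglobulin chain gene Jchain, had none covered, and the nearest peak to Csn1s1 was 189.1 kb away. Of 10 Cxcl chemokine genes 3 were covered, Cxcl3, Cxcl15 and Cxcl2, by 2 peaks, of which 1 lay 0.242 kb from Cxcl3. Of 7 Tmprss11 genes, which encode membrane-bound serine proteases, 2 were covered. How reads that fit several copies of a family were treated is not stated in the labels, so the counts at families of near-identical genes are uncertain.

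Neighbouring peaks, measured between midpoints, were more than 1 Mb apart at 19 places, which add up to 32.5 Mb or 21.9% of the span and hold 58 whole protein-coding genes, 4.66% of the chromosome's. Other autosomes had 3 to 27 such gaps, median 18, covering 8.24 to 37.4% of their span. Only 1 of the 19 began in the distal part, and 8 contained no whole protein-coding gene. The longest was 4.44 Mb, from the peak ending at 77909544 to the one starting at 82346728. Inside it lies a single protein-coding gene, Adgrl3, an adhesion receptor gene of neurons of 808.7 kb, whose closest peak was 519.0 kb from its body. The flanks are Igfbp7, an insulin-like growth factor binding protein gene, and Tecrl.

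The next gap, of 3.35 Mb from 93328380 to 96677621, is the Pramel region, with 34 protein-coding genes, among them Cnot6l, which encodes a deadenylase of the CCR4-NOT complex. The third, of 2.92 Mb, contains no whole protein-coding gene and ends just before the protocadherin gene Pcdh7. From a peak within Pcdh7 on follow gaps of 1.02, 1.87 and 1.87 Mb, so that the window of 55 to 60 Mb, whose only protein-coding gene is Pcdh7, had 3 peaks. Gaps of 1.69 and 1.80 Mb meet at a peak at 69704313 to 69704515 and cover Kctd8, Gabra2 and Gabrg1. The 4 GABA-A receptor subunit genes of this cluster, Gabrg1, Gabra2, Gabra4 and Gabrb1, were not covered, and Gabra4 was the closest to one at 67.5 kb.

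The single long gap of the distal part, 1.74 Mb between 132060379 and 133802086, starts within Auts2, a transcriptional regulator gene linked to neurodevelopment. Auts2 spans 1105.9 kb and had 1 peak in its body and 4 with 10 kb added at each side. Caln1, in the same 5 Mb window, had 8 in a body of 476.9 kb. Among other very long genes, Dpp6 (910.1 kb) had 6 peaks in the body and Magi2 (1485.4 kb) 4. Kcnip4 (1135.6 kb) had 3 and Sdk1 (974.1 kb) 2. Adgrl3 (808.7 kb), inside the longest gap, had none. Dpp6 and Kcnip4 encode potassium channel partners, Magi2 a synaptic scaffold and Sdk1 a synaptic adhesion protein.

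Ksr2 held the most peaks in its body of the protein-coding genes of chromosome 5, 11 over 354.0 kb from 117414002 to 117767996. Of these 7 formed a run between 117494041 and 117516936, that is 22.9 kb, and the peaks on either side of the run lay more than 10 kb off. 2900026A02Rik held 10 over 135.0 kb, and Col26a1 and Fry, the last a gene of a large microtubule-binding protein at the distal end, held 9 each. Cdk14, a cyclin-dependent kinase gene near the centromeric end, and Caln1 held 8. Sorcs2, Apbb2, Wdr66, Tyw1, Clip2 and Mtus2 held 7 each, where Apbb2 encodes an adaptor of the amyloid precursor protein, Tyw1 a tRNA-modifying enzyme and Clip2 a microtubule linker. In all, 454 genes had at least 1 peak in the body, 187 at least 2 and 12 at least 7. The distal part holds 9 of these 12, beside 277 of the 454.

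Per 100 kb of body, the densest gene with at least 4 peaks was Arpc1b, which encodes a subunit of the actin-nucleating Arp2/3 complex. It had 4 in 13.9 kb, or 28.7 per 100 kb, among them peaks of 1137 bp (145122542 to 145123678) and 960 bp (145126885 to 145127844). Ddx54, an RNA helicase gene, had 4 in 15.5 kb (25.8 per 100 kb), Suds3, a Sin3 corepressor subunit gene, 5 in 24.3 kb (20.6), and Iqcd 4 in 20.3 kb (19.7). Amz1 (17.1), Ccdc63 (13.3), Clip2 (10.9), Agap3 (10.0), Chrna9 (9.38) and Wdr66 (9.24) completed the 10 densest. Of the 10 only Agap3, an Arf GTPase-activating protein gene, and Chrna9, a nicotinic receptor subunit gene, lie outside the distal part. Body length enters this ranking, and short genes reach high values with few peaks.

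The fullest windows of 1 Mb, with 42 peaks each, began at 120000001 and 135000001. The first holds 23 protein-coding genes, led by Rbm19 with 7 peaks in its body plus 10 kb and by the overlapping surroundings of Ddx54 (6), Rita1 (6) and Iqcd (5). The other holds 27, led by Srrm3, a splicing factor gene, with 5 and by Hip1, a clathrin adaptor gene, with 4. The next had 38 each, at 113000001, led by 2900026A02Rik with 13 in its body plus 10 kb, and at 139000001, led by Elfn1, a synaptic adhesion gene, with 7. At 123000001 there were 36, led by Wdr66 with 8. Windows with 30 or more peaks made up 16 of 147 on chromosome 5 (10.9%) and 109 of 2228 elsewhere (4.89%), where the highest had 83. Windows without a peak were 14 (9.52%) and 255 (11.4%).

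Genes of every length class were above the level of the other autosomes in peaks per length. In genes under 10 kb there were 3.27 peaks per 100 kb against 2.83, from 10 to 50 kb 2.00 against 1.96, from 50 to 200 kb 1.39 against 1.13, and from 200 kb 0.682 against 0.575. Of the 59 genes of 200 kb or more, 51 (86.4%) had a peak in the body, against 664 of 886 elsewhere (74.9%). These differences were not tested.

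By position relative to genes, 225 peaks (13.6%) fell at a gene end, taken as 1 kb to each side of the first or last base of any annotated gene, 869 (52.6%, 50.1 to 55.0%) lay elsewhere in a gene body and 559 (33.8%, 31.5 to 36.2%) outside genes. On the other autosomes together these shares were 16.7%, 48.5% and 34.8%. The share at gene ends was the lowest but for chromosome 1 (13.4%), and the share in gene bodies was the highest, by a margin over chromosome 19 (52.5%) that is far smaller than the counting error. With gene ends taken as 500 bp the gene-body share had rank 3, and with protein-coding genes alone rank 2. The gene-end share had rank 18 of 19 here and with 500 bp, rank 16 with 2.5 kb, with protein-coding genes alone and with peaks of at least median width, and rank 19 with any overlap of the interval. Peaks at gene ends were wider, with a median of 287 bp against 259 bp for the other peaks of the chromosome.

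Of the 1653 peaks, 89 (5.38%, 4.35 to 6.58%) lay within 1 kb of a listed protein-coding start site, and 63 of these 89 were upstream of it. On the 17 other autosomes with listed starts, 6.43% lay that close. In the 100 bp just before the start there were 28 peak midpoints on chromosome 5, 1.69% of its peaks against 1.45% elsewhere, and in the 100 bp just after it 2 (0.121% against 0.378%).

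**Figure D5:**
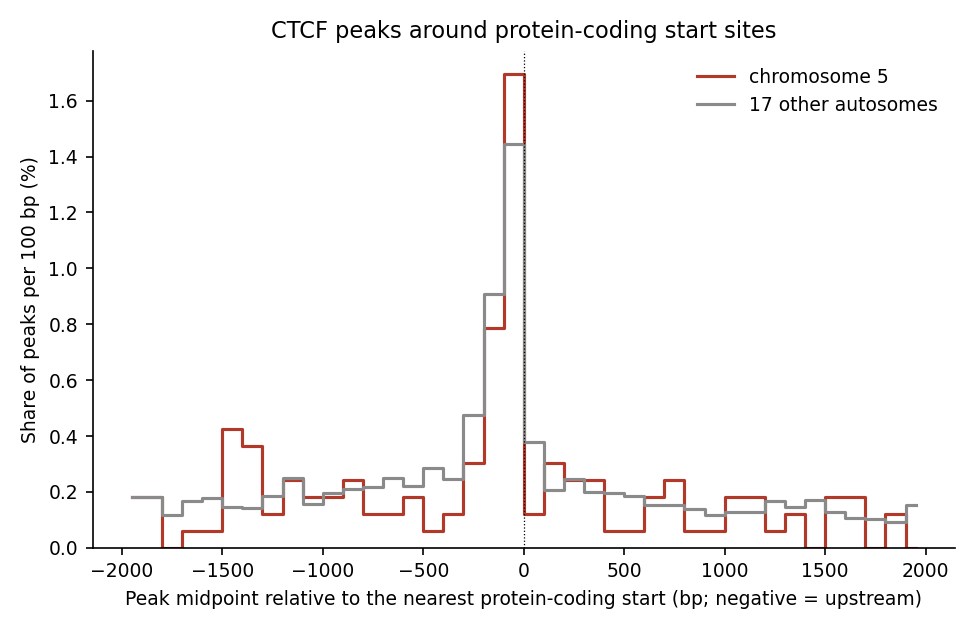
Share of CTCF peaks by the distance of the midpoint from the nearest listed protein-coding start, in bins of 100 bp, for chromosome 5 (red) and 17 other autosomes (grey), with upstream distances negative. Both have their maximum in the bin just upstream of the start, with 1.69% and 1.45% of peaks.

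Developmental regulators differed among themselves. In the T-box region the distal neighbour Rbm19 had 7 peaks in its body or up to 10 kb away, Med13l, a Mediator subunit gene, 5, and Tbx3, a transcription factor gene of limb and mammary gland, 2. Tbx5, a heart and forelimb factor gene beside it, had none within 10 kb, with its closest peak at 10.4 kb. One of the Tbx3 peaks covers the promoter window of the antisense transcript Tbx3os2, printed above. Of the 3 ParaHox genes, Cdx2 had 3 peaks within 10 kb and none in its 6.35 kb body, at 147293133 to 147293496, 147294170 to 147294376 and 147299177 to 147299467. The midpoint of the last lies 1.58 kb beyond the 3′ end of the gene, which is transcribed on the minus strand. Pdx1, the pancreatic factor gene, and Gsx1, a neural one, had none within 10 kb, and their closest peaks were 17.5 and 36.6 kb away. The Cdx2 locus with 100 kb added at each side held 11 peaks. The list was merged over cells with and without induced CDX2, so nothing here separates them.

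Among receptor tyrosine kinase genes and their ligands, 6 of 16 were covered, against 57.8% of all protein-coding genes of the chromosome. Members lie both in the distal part, where 69.3% of all protein-coding genes were covered, and in the rest of the chromosome, where 45.6% were. The part of location in this count was not tested. The 3 neighbours Pdgfra, Kit and Kdr differed. Pdgfra, the PDGF receptor gene of mesenchymal cells, had 3 peaks in its body, all between 75155670 and 75157322. Kit, the stem cell factor receptor gene, had none and its closest peak lay 196.6 kb away, and Kdr, the VEGF receptor gene of endothelium, had none with the closest at 61.5 kb. Near the distal end Flt3, a receptor gene of blood progenitors, had 6 with 10 kb added and Flt1, another VEGF receptor gene, had 4. Among signalling ligands and their receptors 11 of 18 were covered, with 3 at Sema3e, an axon guidance gene, and 2 at Shh, at 5.46 and 2.86 kb on either side of the gene. Msx1, a homeobox gene of teeth and limbs, had its closest peak at 68.0 kb.

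In the Williams syndrome region and among the cytoskeletal genes the share of covered genes was above the 57.8% of all protein-coding genes of the chromosome. Of 28 members of the former 23 were covered (82.1%), at a mean of 1.89 peaks per gene against 1.25 for all protein-coding genes of the chromosome, from 46 distinct peaks. Clip2 had 8, Gtf2ird2 and Hip1 4, Eln, the elastin gene, 2, and the claudin genes Cldn3 and Cldn4, the transcription factor gene Gtf2i, Tbl2 and the Wnt receptor gene Fzd9 none. Among genes of cytoskeleton and adhesion 13 of 16 were covered, at 2.44 per gene, with 5 at Rhof, 4 at Pxn, which encodes paxillin of focal adhesions, 4 at Arpc1b and 1 in the body of Actb. Fscn1, Pdgfa and Antxr2 had none. Hip1, Limk1 and Eln, all of them covered, are on both of these lists. Of 25 chromatin and nuclear regulators 17 were covered (68.0%), with 6 at Setd1b, a histone methyltransferase gene, and 4 at Kdm2b, a histone demethylase gene, and none at Clock, Brca2 or Kmt2c among others. The Williams syndrome region and most of the cytoskeletal genes lie in the dense distal part, where 69.3% of all protein-coding genes were covered, and the part of that location in these counts was not tested.

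Of a list of 21 neuronal genes, most of them long, 17 were covered, against 57.8% of all protein-coding genes of the chromosome, with 10 at Caln1, 9 at Sorcs2 and 7 at Tmem132b, and none at Adgrl3, Epha5, Ldb2 and Shisa3. Their median length was 433.2 kb, though Shisa3 spans 6.11 kb and Nos1 92.0 kb, and the median of all protein-coding genes of the chromosome is 22.8 kb. Of the chromosome's 59 protein-coding genes of 200 kb or more, 51 (86.4%) had a peak in the body alone. The part of length in the count for this list was not tested. Homeobox genes were covered at 9 of 17 (52.9%), near the share of all genes, with 7 peaks at Cux2. Among 16 interferon-induced Gbp and Oas genes 7 were covered, with 2 at Oas2 and Oas1c each. All 7 were Oas genes. No Gbp gene was covered, and the closest peak to one lay 104.2 kb from Gbp6. Families of similar copies varied: 1 of 11 vomeronasal receptor genes was covered, 1 of 9 Cyp3a genes, which encode drug-metabolising enzymes, 6 of 19 Zfp zinc finger genes (31.6%) and 4 of 9 Speer genes (44.4%), a family of spermatogenesis. Of the 4 ribosomal protein genes of the Rpl type, Rpl21 had 2 peaks, Rpl5 and Rpl6 1 each and Rpl9 none. Rplp0, whose promoter is printed above, was not on that list and had 2. Each list is short and was set beside the chromosome's own genes as a description. The median length was 4.845 kb for the Speer genes and 16.5 kb for the Zfp genes. The 4 covered Speer genes lie outside the distal part, where 45.6% of all protein-coding genes were covered. The part of length and of location in the family counts was not tested.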

How the data were processed

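CTCF immunoprecipitations were sequenced in 4 libraries, 2 per condition, with 1 input. Per the labels' protocols, Drosophila chromatin was added for normalization. Tools listed in the submitters' processing notes are STAR, Picard and MACS2, with no version, and builds are mm10 and dm6. For their roles, the peak threshold and the merging of conditions, nothing is given in the sources used here. The authors deposited 1 list of intervals with 3 columns that hold only positions, so there is nothing to normalise, depth is unknown and no count model or p-value was used. Groups were taken from the sample titles. Genes came from RefSeq GRCm38.p6, the assembly on which mm10 rests: of the autosomal genes 46714 were kept and 328 placed below 3 Mb were left out. Promoter windows came from the same build, chromosome 18 not used. Positions are counted from 1.

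Peaks were placed by midpoint with Python 3.11.15, numpy 2.4.6, pandas 2.3.3 and scipy 1.17.1. The counting of peaks and the motif search were tested on simulated data, and the merging of neighbours on the listed peaks of chromosome 5. Intervals are exact binomial at 95% and cover counting error only. The rest of the series was summarised as ranks and ranges over 19 autosomes, with chromosomes 4 and 6 as the closest in span. Alternatives were wide peaks only, merged neighbours, other gene sets, distal borders, window offsets, gap lengths, gene-end distances and a shorter motif.

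Named genes were the 15 with most peaks in the body; the 10 densest with at least 4; up to 4 in each of the 5 fullest 1 Mb windows; genes in and beside the 8 longest gaps; up to 4 per list of 19 lists; and 15 fixed genes. Some genes that the rule names are not reported here. Others named, such as list members with and without a peak, genes at shared promoters and leading genes of windows, were chosen after their values were seen. The chromosome, lists and rules were chosen with earlier results of these data known.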

Additional observations from a re-analysis of the deposited data

How the results depend on the processing

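The list holds no depth and no copy number, so peaks missed for lack of reads cannot be told from absent binding. This holds between chromosomes and between the distal part and the rest. No paired analysis was possible because the columns carry no sample or replicate, and for the same reason no library could be left out. Chromosome 5 stayed above the pooled other autosomes under every alternative run, per Mb and per gene, and without chromosome 11, an alternative chosen after seeing the data, it stood at 1.29 per Mb.

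With peaks of at least median width the distal to rest ratio was 4.18 per Mb and 1.95 per gene, the 5 fullest windows held 48.1% and the 10 emptiest 5.02% of peaks, and 16.4% lay at gene ends and 30.1% outside genes. With the last 50% of the span as the distal part the ratios were 2.14 and 1.15, and with all genes the second was 1.84. Windows shifted by 2.5 Mb held 38.2% and 6.41%, where those from position 1 held 40.7% and 8.95%. There were 32 gaps over 750 kb and 49 over 500 kb. Gene ends within 500 bp took 8.59% of peaks and bodies 55.5%; within 2.5 kb the shares were 27.2% and 44.8%, with 28.0% outside. Any overlap gave 15.4% at ends, and protein-coding genes alone gave 8.89% at ends, 48.3% in bodies and 42.8% outside. The shorter words AGGGGGC or AGGTGGC, of which the long consensus can contain either, were in 46.0% of the promoter windows with a peak and in 15.4% of those without. Of the alternatives for these results 24 moved further than the counting interval or, for gaps, by at least 1.5 times, and 20 stayed within these limits. For lists and single genes 263 stayed within them and 37 moved further. Set beside all protein-coding genes of the chromosome (1.25 peaks per gene, 0.702 with wide peaks and 0.696 in the body alone), some lists changed side: homeobox genes went from 1.18 to 0.941 and ribosomal protein genes from 1.00 to 0.750 with wide peaks, and signalling genes from 1.11 to 0.778 in the body alone.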

Other observations

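The widest peak of the chromosome, 1625 bp at 146834264 to 146835888, lay over Rpl21, a ribosomal protein gene, near an annotated snoRNA gene. The next, of 1317 bp at 124898909 to 124900225, lay 208 bp from an end of the non-coding Gm40320 and outside the body of Zfp664. Of the 1653 peaks 59 (3.57%) were 500 bp or wider, against 4.09% on the other autosomes. The 10 widest all lay in the distal part, which holds 62.2% of the chromosome's peaks.

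Runs of at least 5 peaks with neighbours under 10 kb apart numbered 14, with 81 peaks, and 12 of them lay in the distal part. That part holds 62.2% of the chromosome's peaks, and peaks lay closer together there, a median of 21.2 kb apart against 55.9 kb in the rest. The largest run had 8 peaks in 34.9 kb over Fam222a and Trpv4, the gene of a calcium-permeable channel that senses osmotic and mechanical stimuli, between 114604739 and 114639647. Clip2 and Ksr2 followed with 7 each.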
